A study of Mus musculus with 8 samples.

Results

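The immediate early and cell isolation stress genes described here are *Fos*, *Fosb*, *Jun*, *Junb*, *Egr1*, *Atf3*, *Dusp1*, *Ier2*, *Hspa1a* and *Hspa1b*, which were chosen by symbol, with earlier results of these data known. All 10 were found among the 54146 genes in the counts, and all 10 were among the 17095 genes with enough counts to be tested. Bulk RNA-Seq had been performed on macrophages sorted from epididymal white adipose tissue (eWAT) of 4 mice. Each mouse gave 1 FCGR4+ and 1 FCGR4- library, so that both populations had 4 libraries and could be compared within the animal.

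All 4 mice were C57Bl6 and had the same regimen: high-fat feeding ad libitum for 24 weeks, then 2 weeks of caloric restriction in which food was cut by 30%. No unrestricted animal was sequenced in this experiment, and the labels give neither sex nor age. The study's methods state that its mice were all male and that the high-fat diet held added cholesterol. By the study's methods, the fat pad was digested to single cells, stained and sorted, and the 2 populations differ by surface FCGR4, an Fc receptor for IgG. Cells went from the sorter straight into TRIzol. The animal ID of mice 1 and 2 has another prefix than that of mice 3 and 4, and what the prefix stands for is not given.

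Immediate early genes are transcribed within minutes of a stimulus, without the need for new protein synthesis. Serum response factor with its ELK partners, CREB, and the MAP kinases that activate them switch these genes on, and their short-lived mRNAs and proteins switch off again as feedback regulators such as *Dusp1* accumulate. FOS and JUN proteins pair to form AP-1, which drives a later wave of cytokine and tissue remodeling genes in macrophages. The inducible HSP70 genes answer to another factor, HSF1, which is released when unfolded proteins engage the chaperones. Warm enzymatic digestion and sorting are known to induce both groups in cells from many tissues.

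The regulatory sequence in front of these genes is shown for 3 members: the HSP70 copies, whose likeness bears on how their counts are read, and *Dusp1*, the most abundant of the 10 per length, whose FCGR4+ over FCGR4- ratio had the interaction of largest size in the main fit. RefSeq promoters (GRCm38.p6, from 250 bases before the gene start to 50 bases after it) were at hand for 8 of the 10 genes, with none for *Egr1* or *Ier2*. The *Hspa1a* and *Hspa1b* stretches run from 140 to 11 bases upstream of the start, at chr17:34972167-34972296 and chr17:34959249-34959378, both on the minus strand, and the *Dusp1* stretch runs from 170 to 111 bases upstream, at chr17:26508583-26508642 on the minus strand. Capitals mark GAANNTTC, a pair of inverted units of the element to which HSF1 binds, in the HSP70 genes, and TGACGTCA, the cAMP response element (CRE), in *Dusp1*.
Hspa1a: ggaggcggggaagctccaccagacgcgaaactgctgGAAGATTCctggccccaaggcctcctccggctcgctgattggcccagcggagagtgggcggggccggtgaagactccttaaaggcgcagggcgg
Hspa1b: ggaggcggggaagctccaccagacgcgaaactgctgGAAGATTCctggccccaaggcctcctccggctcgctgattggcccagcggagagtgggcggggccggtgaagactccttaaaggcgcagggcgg
Dusp1: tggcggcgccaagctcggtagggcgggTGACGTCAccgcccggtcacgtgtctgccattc

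The *Hspa1a* and *Hspa1b* stretches differed at 0 of 130 bases, and over the 250 bases upstream the genes were identical at 247 (98.8%). GAANNTTC was found in 3 of the 8 promoters (*Jun*, *Hspa1a* and *Hspa1b*), against 7.86% of 32851 RefSeq promoters. The reverse arrangement, TTCNNGAA, was in 0 of 8 (8.52% of all promoters). A CRE was in 1 of 8 (1.79% of all), an AP-1 site, TGANTCA, in 0 of 8 (7.81%), and the CArG box that serum response factor reads in 0 of 8 (1.63%). TATAAA was in 2 of 8 (*Fos* and *Junb*; 13.6% of all) and CCAAT in 5 of 8 (37.4%). Both strands were searched, and these are letter matches in a 300-base window, not measured binding. Sites farther from the start, and any site of *Egr1* or *Ier2*, could not be found. A count of 0 therefore does not show that these genes lack the element.

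**Figure D1:**
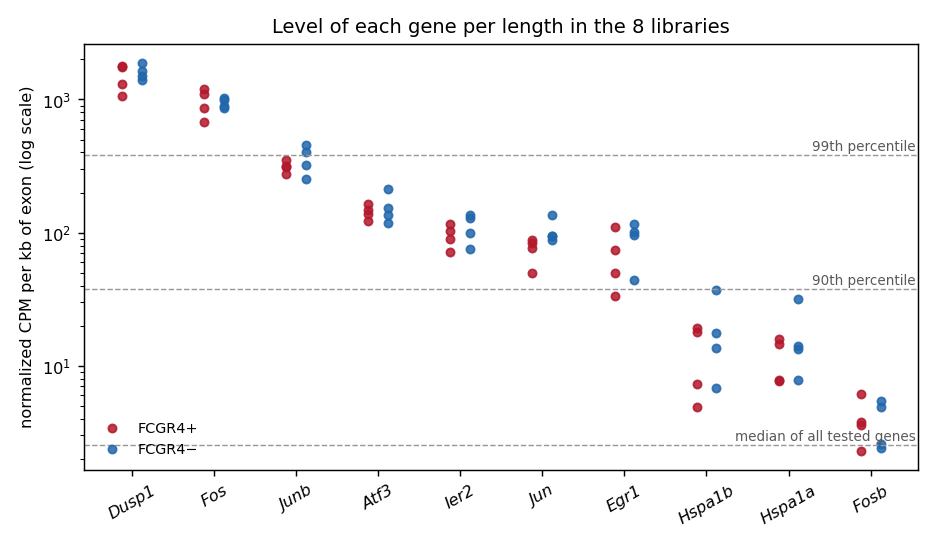
Normalized CPM per kb of exon (log scale, y axis) for each of the 10 genes (x axis, ordered by mean) in the 4 FCGR4+ and 4 FCGR4- libraries, 1 point per library. *Dusp1* and *Fos* lie above the 99th percentile of all tested genes in all 8 libraries, and *Fosb* lies near the median.

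Before populations were compared, the level of each gene was placed among all genes, since a high level in every library is itself a property of these cells as they were collected. Levels are normalized CPM (counts scaled to library size) divided by exon length, and all are means of 8 libraries with their range. *Dusp1*, a phosphatase that inactivates MAP kinases, was the highest at 1541 CPM per kb (1069 to 1867). *Fos* followed at 954 (679 to 1204). Ranked among the 17095 tested genes, *Dusp1* stood between 43rd and 78th and *Fos* between 58th and 110th, depending on the library.

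*Junb*, an AP-1 subunit, came next at 336.5 CPM per kb (253 to 458) and ranked 151st to 295th. *Atf3*, a stress-induced repressor of the ATF family, had 149 (119 to 213). *Ier2*, an early response nuclear protein, had 103 (72.0 to 136), *Jun* 88.9 (49.5 to 136), and *Egr1*, a zinc finger transcription factor, 78.1 (33.2 to 116). The inducible HSP70 chaperones were lower, with 15.6 (4.94 to 37.0) for *Hspa1b* and 14.1 (7.75 to 31.5) for *Hspa1a*. *Fosb* was the lowest at 3.90 (2.29 to 6.10), between rank 5509 and rank 8643, beside a median of 2.53 and a 90th percentile of 37.6 CPM per kb over all tested genes.

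Ranges did not overlap at 3 steps of this order, between *Fos* and *Junb*, *Junb* and *Atf3*, and *Hspa1a* and *Fosb*. *Dusp1* overlapped *Fos* in range but was above it in each of the 8 libraries, as *Atf3* was above *Ier2* and *Egr1* above *Hspa1b*. Among *Ier2*, *Jun* and *Egr1* the order was not stable: *Ier2* was above *Jun* in 5 of 8 libraries, and *Jun* above *Egr1* in 4. *Hspa1b* was above *Hspa1a* in 5 of 8. Together the 10 genes took between 0.596% and 1.06% of all counts of a library, most of it *Fos* and *Dusp1*. In raw counts the lowest member value was 546 (*Fosb*), so counting error was small beside the differences between mice.

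The libraries held between 35992794 and 66856746 counts, and mitochondrial genes took 4.13% to 9.88% of them. *Fcgr4*, the check of the sort, averaged 199.6 ± 42.4 CPM (SD, n = 4) in FCGR4+ and 66.1 ± 18.3 in FCGR4- libraries and was higher in 4 of 4 mice (log2 fold change 1.61, adjusted p = 0.0162). Both populations carried macrophage markers, with summed levels of 39687 to 68450 CPM in FCGR4+ and 30265 to 61250 in FCGR4- libraries, higher in FCGR4+ in each mouse. Of the 14 macrophage markers edgeR called 0 and DESeq2 called 8, all higher in FCGR4+. Markers of other cells were higher in the FCGR4- libraries of every mouse: summed mast cell and basophil markers were 14.5 to 30.5 CPM against 392.5 to 2162, dendritic cell markers 7.91 to 16.1 against 45.1 to 97.4, T and NK cell markers 3.82 to 10.9 against 17.4 to 58.8, B cell markers 241 to 354 against 468 to 2340, neutrophil markers 119 to 544 against 381 to 2382, and fibroblast markers 147 to 294 against 368 to 1581. Log2 fold changes were below 0 for only 4 of the 6 tested B cell markers, and for all tested genes of the other lists just named. Of these lists, 9 of 9, 4 of 8, 6 of 9, 2 of 6, 5 of 8 and 6 of 10 tested genes passed the threshold, all lower in FCGR4+ (1.19% of all tested genes). Most of these counts moved when single mice were left out: without mouse 1, 2, 3 or 4 the dendritic cell count was 2, 2, 4 and 4, the T and NK cell count 1, 1, 5 and 2, the B cell count 0, 0, 2 and 1, the neutrophil count 4, 5, 4 and 3, and the fibroblast count 0, 6, 1 and 1, beside 8 to 9 for mast cells and basophils. With no block on mouse the counts, from mast cells to fibroblasts in the order above, were 6, 1, 0, 0, 0 and 2. At a threshold of 0.05 they were 9, 3, 1, 0, 4 and 1. Endothelial markers (11.3 to 22.9 against 15.4 to 29.9 CPM) and adipocyte markers (288 to 300.4 against 198 to 302) overlapped, with 0 called, and none of the listed markers that were tested was at or under 3 counts in all libraries. The part of these other cells in the stress gene values was not tested, and in bulk samples fewer cells of a type and less RNA per cell cannot be told apart.

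Whether FCGR4+ and FCGR4- macrophages of the same mouse differed in these genes was tested in edgeR by a quasi-likelihood model blocked on mouse, over all 17095 genes, at an adjusted p of 0.1. Of the 10 genes, 0 passed the threshold, where 217 of all tested genes (1.27%) did, with 0.0819% of tested genes called higher in FCGR4+ and 1.19% lower. DESeq2 with the same paired model also called 0 of 10, beside 1024 of all tested genes (5.99%, with 1.12% higher and 4.87% lower). In counts simulated for this comparison, DESeq2's calls held a larger share of unchanged genes than edgeR's, and edgeR missed many of the smaller changes. At an unadjusted p under 0.05 edgeR gave 1 gene, *Jun*, where 1671 of all genes (9.77%) reached it. The groups overlapped for 10 of 10 genes, whereas over all genes 0.883% lay without overlap higher in FCGR4+ and 3.02% lower. Log2 fold changes were below 0 for 9 of 10 genes, beside 50.3% of all, with a median of -0.18 beside -0.0025 for all genes. No gene of the 10 went one way in all 4 mice, as 18.8% of all genes did.

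**Figure D2:**
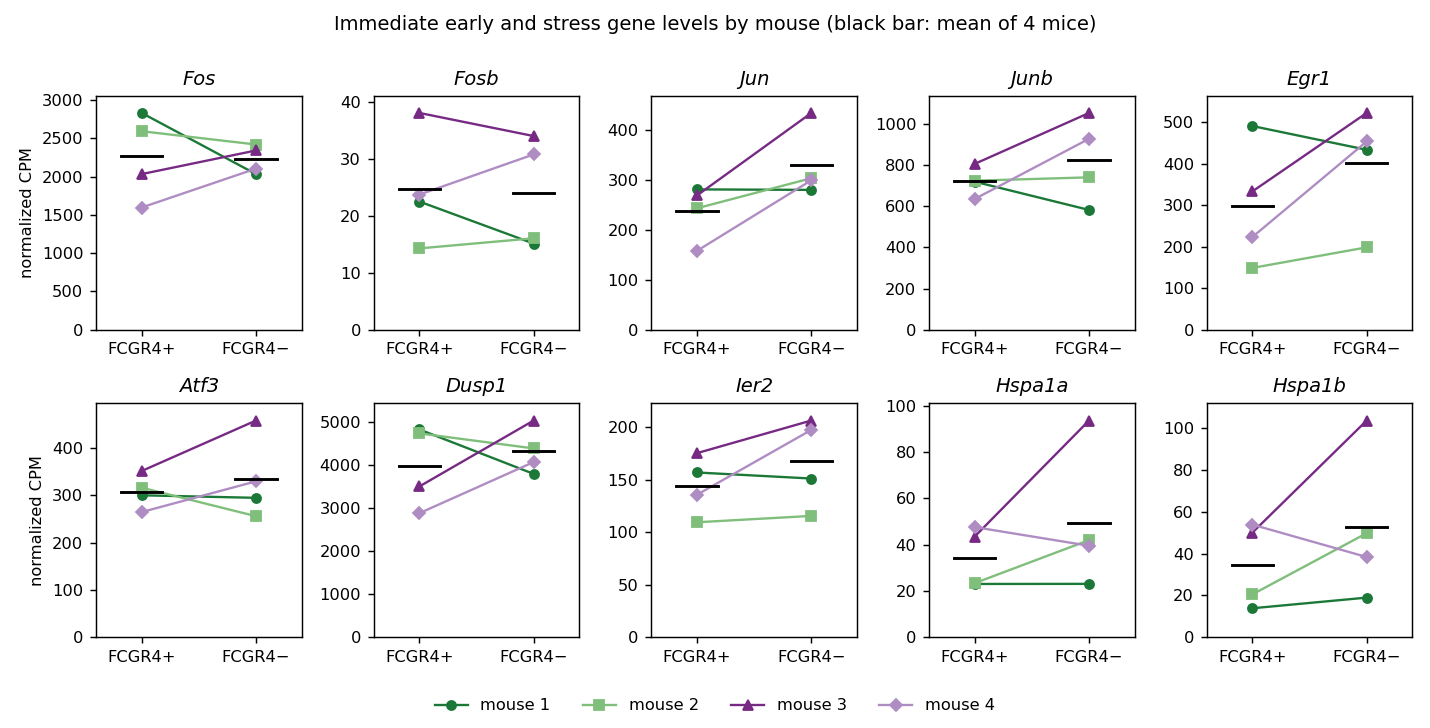
Normalized CPM (y axis, linear, from 0) of each gene in FCGR4+ and FCGR4- macrophages (x axis), with 1 line per mouse and black bars for the mean of 4 mice. Lines slope in different directions within 1 gene: for *Fos* and *Dusp1* they descend from FCGR4+ to FCGR4- in mice 1 and 2 and climb in mice 3 and 4.

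The FOS subunits of AP-1 had no difference between populations that exceeded the spread between mice. *Fos* (ENSMUSG00000021250.13, chr12:85473890-85477273, plus strand, mm10) had 2832, 2593, 2033 and 1596 CPM in the FCGR4+ libraries of mice 1 to 4. The FCGR4- libraries of the same mice had 2032, 2420, 2342 and 2104 CPM. The FCGR4+ libraries thus held both the highest and the lowest *Fos* values, and the FCGR4- values all lay between them. The fitted log2 difference was -0.0065 (SE 0.170, 95% interval -0.41 to 0.39, adjusted p = 0.992).

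*Fosb* (ENSMUSG00000003545.3, chr7:19302696-19310051, minus strand), a FOS relative that also pairs with JUN proteins, had 22.5, 14.3, 38.1 and 23.7 CPM in FCGR4+ cells. In FCGR4- cells it had 15.1, 16.1, 34.0 and 30.8 CPM. Mouse 3 was the highest of both populations, and mice 1 and 3 were higher in FCGR4+ cells while mice 2 and 4 were lower. The fitted difference was 0.05 (SE 0.189, interval -0.40 to 0.49, adjusted p = 0.941).

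Among the JUN subunits, *Jun* had the smallest p-value of the 10 genes. *Jun* (ENSMUSG00000052684.4, chr4:95049034-95052222, minus strand) had 281, 243, 269 and 158 CPM in FCGR4+ libraries and 280.0, 303, 434 and 299 CPM in FCGR4- libraries. The values of mouse 1 were nearly equal, and FCGR4+ was lower in the other 3, with the widest gap in CPM in mouse 3 and the lowest ratio in mouse 4. The log2 difference was -0.48 (SE 0.179, interval -0.90 to -0.06), with an unadjusted p of 0.0305 that did not survive adjustment in edgeR (adjusted p = 0.443) or in DESeq2 (adjusted p = 0.134), and ran from 0.130 to 0.999 over all alternatives. Of the exon bases of *Jun*, 7.28% are overlapped by the antisense gene *Junos*, whose reads could not be told apart because strand was not used.

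*Junb* (ENSMUSG00000052837.6, chr8:84974484-84978718, minus strand) had 720.1, 725, 807 and 636 CPM in FCGR4+ libraries. Its FCGR4- values were 582, 741, 1055 and 929 CPM. The FCGR4+ values lay close together, and the FCGR4- values spread to both sides of them, low in mouse 1 and high in mice 3 and 4. The difference was -0.17 (SE 0.171, interval -0.57 to 0.24, adjusted p = 0.746). *Prdx2*, a neighboring gene, overlaps 7.52% of the *Junb* exon bases.

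*Egr1* (ENSMUSG00000038418.7), an early activator in many macrophage responses, was more variable between mice than the FOS and JUN genes among the 10. It had 490.6, 149, 333 and 223 CPM in FCGR4+ libraries of mice 1 to 4 and 433, 198, 522 and 453 CPM in FCGR4- libraries. Mouse 2 was the lowest in both populations, mouse 1 was higher in FCGR4+ cells and mice 2 to 4 were lower, with 0.492 times the FCGR4- level in mouse 4. The difference was -0.48 (SE 0.204, interval -0.96 to 0.0021, adjusted p = 0.511).

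*Atf3* (ENSMUSG00000026628.13, chr1:191170296-191218039, minus strand), which restrains inflammatory transcription in macrophages, had 299.8, 316, 351 and 264 CPM in FCGR4+ libraries. In FCGR4- libraries it had 294, 256, 458 and 329 CPM. Mice 1 and 2 were higher in FCGR4+ cells and mice 3 and 4 lower. The difference was -0.09 (SE 0.158, interval -0.46 to 0.28, adjusted p = 0.848).

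The feedback phosphatase followed *Fos*. *Dusp1* (ENSMUSG00000024190.6, chr17:26505590-26508519, minus strand; its CRE is shown above) had 4829, 4737, 3503 and 2882 CPM in FCGR4+ libraries and 3795, 4387, 5036 and 4071 CPM in FCGR4- libraries. Mice 1 and 2 had more *Dusp1* in FCGR4+ cells, and mice 3 and 4 had more in FCGR4- cells. These opposite differences left a fitted value of -0.14 (SE 0.183, interval -0.57 to 0.29, adjusted p = 0.798).

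*Ier2* (ENSMUSG00000053560.4, chr8:84661331-84662852, minus strand) had 157, 109.6, 175 and 136 CPM in FCGR4+ libraries. FCGR4- libraries had 151, 116, 207 and 198 CPM. The gap in CPM was widest in mouse 4, with the lower value in FCGR4+ cells, and the 2 populations overlapped. The difference was -0.20 (SE 0.146, interval -0.54 to 0.14, adjusted p = 0.659).

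The HSP70 genes, which refold proteins after heat or chemical stress, formed a second pattern. *Hspa1a* (ENSMUSG00000091971.3, chr17:34969190-34972156, minus strand) had 23.0, 23.3, 43.4 and 47.5 CPM in FCGR4+ libraries and 23.0, 41.9, 93.6 and 39.5 CPM in FCGR4- libraries. *Hspa1b* (ENSMUSG00000090877.3, chr17:34956436-34959238, minus strand) had 13.8, 20.5, 49.98 and 53.9 CPM in FCGR4+ and 18.9, 49.8, 103.6 and 38.3 CPM in FCGR4- libraries. Both were highest in the FCGR4- library of mouse 3, and mouse 4, not mouse 1, was the animal with the higher level in FCGR4+ cells.

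The fitted differences were -0.42 for *Hspa1a* (SE 0.249, interval -1.01 to 0.17, adjusted p = 0.603) and -0.58 for *Hspa1b* (SE 0.290, interval -1.26 to 0.10, adjusted p = 0.562). These genes are near-identical copies: 66.3% of the 50-base words of *Hspa1a* transcripts and 62.3% of those of *Hspa1b* occur in other genes, each other among them. Read pairs that map to several places had been counted at each, so their 2 values may share reads and the level of either copy alone is uncertain. *Hspa1a* also has 19.0% of its exon bases overlapped by *Gm20481*. For *Fos*, *Fosb*, *Egr1*, *Atf3*, *Dusp1* and *Ier2* both the overlapped bases and the shared words came to 0%.

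**Figure D3:**
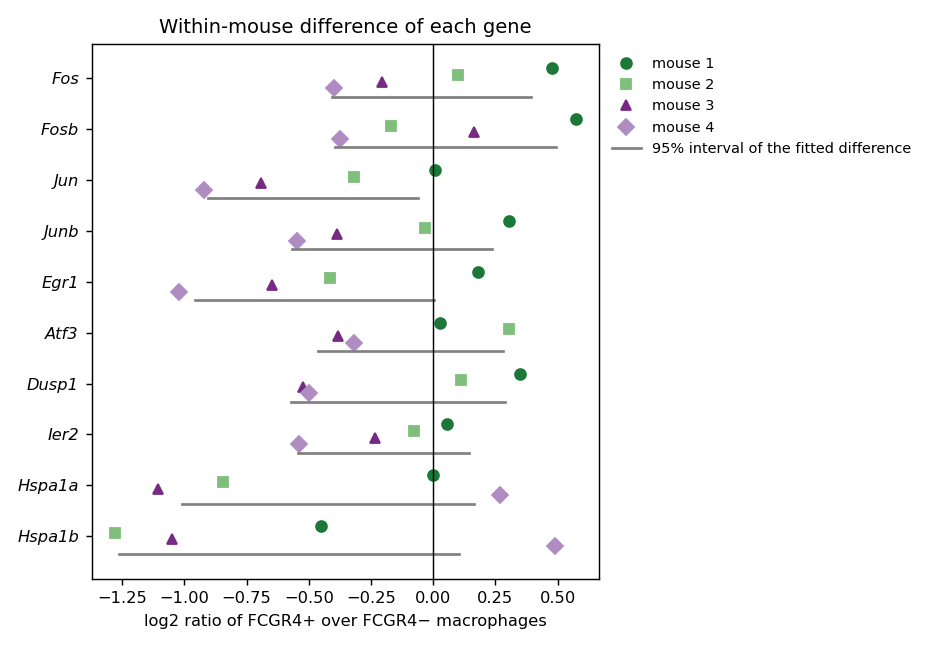
Log2 ratio of FCGR4+ over FCGR4- (x axis) for each gene (y axis), with 1 symbol per mouse and a grey bar for the 95% interval of the fitted difference over 4 mice. Mouse 1 lies to the right of mice 3 and 4 for the 8 genes from *Fos* to *Ier2*, and mouse 4 lies farthest right for *Hspa1a* and *Hspa1b*.

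The within-mouse ratios differed in sign between mice for each of the 10 genes. *Fos*, *Fosb*, *Atf3* and *Dusp1* were higher in FCGR4+ cells of 2 mice and lower in 2. The other genes were higher in 1 mouse and lower in 3, and for *Jun* the 1 ratio above 0 was only 0.0051. In mouse 1, 8 of 10 genes were higher in FCGR4+ cells, with a median log2 ratio of 0.12. In mouse 2 there were 3 (median -0.12), in mouse 3 there was 1 (median -0.46) and in mouse 4 there were 2 (median -0.45). The medians over all tested genes lay near 0 in each mouse, at 0.03, -0.0021, -0.05 and -0.0010.

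Apart from the HSP70 copies, the 8 remaining genes were all higher in FCGR4+ cells of mouse 1, and 0 of 8 were in mouse 4. Of the 10, 7 were lower in FCGR4+ cells of both mouse 3 and mouse 4, as 36.3% of all genes were. *Fos*, *Atf3* and *Dusp1* were higher in mice 1 and 2 and lower in mice 3 and 4, which held for 3 of 10 here and for 9.92% of all genes, whereas 0 of 10 showed the reverse (7.08% of all genes). The ratios of *Egr1* in mice 1 to 4 were 0.18, -0.41, -0.65 and -1.02, and those of *Jun* 0.0051, -0.32, -0.69 and -0.92. Those of *Fos* were 0.48, 0.10, -0.20 and -0.40.

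A test of the difference itself asked whether the ratio in mice 3 and 4 differed from that in mice 1 and 2, as an interaction of population with ID prefix in a fit over all genes. edgeR called 0 of 10 members and 0 of all 17095 genes (0%). At an unadjusted p under 0.05 it gave 6 of 10 members and 2355 of all genes (13.8%). DESeq2 with the same interaction model called 5 of 10 members, *Fos*, *Jun*, *Junb*, *Egr1* and *Dusp1*, and 977 of all genes (5.72%). The call therefore depends on the tool. In counts simulated for this interaction, DESeq2's calls held a far larger share of unchanged genes than edgeR's, and edgeR recovered few of the changed genes, so neither count is a firm one. All 5 of these were lower in FCGR4+ cells of mice 3 and 4, relative to mice 1 and 2.

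*Dusp1* had the largest interaction of the 10 in size in the main fit, a log2 ratio lower by -0.74 in mice 3 and 4 (SE 0.180, 95% interval -1.19 to -0.29, adjusted p = 0.304 in edgeR and 0.0137 in DESeq2). *Egr1* had -0.72 (interval -1.40 to -0.03), *Jun* -0.65 (-1.18 to -0.11), *Junb* -0.60 (-1.12 to -0.09) and *Fos* -0.59 (-1.12 to -0.07), with DESeq2 adjusted p-values of 0.0856, 0.0690, 0.0789 and 0.0925 and edgeR adjusted p-values of 0.355, 0.326, 0.335 and 0.341. *Atf3* had -0.52 (-1.01 to -0.02), *Ier2* -0.38 (-0.89 to 0.14) and *Fosb* -0.31 (-1.19 to 0.56), and their adjusted p-values missed the threshold in both tools. The interactions of the HSP70 copies were 0.0019 for *Hspa1a* (-1.27 to 1.28) and 0.59 for *Hspa1b* (-0.82 to 1.99), which leaves room for shifts of either sign. The median interaction of all genes was -0.06, and 53.3% were below 0. The order by size was not stable. *Egr1* was larger than *Dusp1* with no block (-0.83 against -0.74) and without mouse 2 (-0.92 against -0.77). *Hspa1b* was the largest without mouse 1 (0.998) or mouse 3 (1.39).

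Other values moved with this split of the mice. Mitochondrial genes took 8.31% and 4.35% of counts in the FCGR4+ libraries of mice 1 and 2 and 9.88% and 6.43% in their FCGR4- libraries, so that the share was lower in FCGR4+ cells of these mice. In mice 3 and 4 it was 7.87% and 6.67% in FCGR4+ and 5.21% and 4.13% in FCGR4- libraries, higher in FCGR4+ cells. The part of this share in the stress gene ratios was not tested. With 2 mice per prefix, anything else in which these pairs of animals differed cannot be told apart from the prefix, and an exact permutation of 2 against 2 mice cannot go below a two-sided p of 0.333.

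The 10 genes also differed in whether they varied between mice or between populations of a mouse. The SD of the mouse means on the log2 scale was 0.18 for *Dusp1*, 0.20 for *Fos*, 0.21 for *Junb*, 0.23 for *Atf3*, 0.27 for *Jun* and 0.32 for *Ier2*, below the median of 0.364 over all genes. It was 0.56 for *Fosb*, 0.63 for *Hspa1a*, 0.64 for *Egr1* and 0.91 for *Hspa1b*, above that median. The mean size of the within-mouse log2 ratio ran from 0.23 (*Ier2*) to 0.82 (*Hspa1b*), where the median gene had 0.434. *Hspa1b*, *Hspa1a* and *Fosb* were higher in mice 3 and 4 than in mice 1 and 2, averaged over both populations, by 1.33, 0.97 and 0.90 on the log2 scale, given here as values with no test.

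To place the genes in their pathway, lists of their upstream activators, companions and targets were read from the same fit. None of the 24 other immediate early transcription factors passed the threshold in edgeR, and 16 were below 0 (median log2 fold change -0.23). *Fosl1*, another FOS relative, had 0.894 ± 0.419 CPM in FCGR4+ and 3.68 ± 3.04 in FCGR4- libraries (log2 fold change -1.74, adjusted p = 0.207 in edgeR and 0.0070 in DESeq2). *Npas4*, an activity-dependent factor known from neurons, had 0.518 ± 0.403 against 0.0458 ± 0.0734 CPM, near the level of 3 counts (0.0440 to 0.0883 CPM), and no fold is given. DESeq2 called 3 of the 24, *Fosl1* among them, all lower in FCGR4+, beside 4.87% of all tested genes.

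Of 32 feedback regulators of immediate early signaling, edgeR called 0, 24 were below 0 and the median was -0.14. *Plk3*, a stress-activated kinase, had 15.9 ± 5.34 CPM in FCGR4+ and 45.7 ± 36.5 in FCGR4- libraries (log2 fold change -1.19, adjusted p = 0.222 in edgeR and 0.0037 in DESeq2), lower in 4 of 4 mice. *Spry4*, an inhibitor of receptor tyrosine kinase signaling, had 0.196 ± 0.391 against 0.345 ± 0.146 CPM, with 3 FCGR4+ libraries at 0 counts. DESeq2 called 4 of the 32, *Plk3* and *Spry4* (adjusted p = 0.0651) among them, 1 higher and 3 lower. Over all tested genes it called 1.12% higher and 4.87% lower.

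In the upstream list of 22 MAP kinase, SRF and CREB genes, 0 passed in edgeR and 0 in DESeq2, and 12 were below 0 (median -0.03). The largest differences were those of the MAP kinase-activated kinases *Rps6ka3* (38.1 ± 9.88 against 23.7 ± 6.56 CPM, log2 fold change 0.68, adjusted p = 0.380) and *Rps6ka5* (0.44, adjusted p = 0.598). Of 20 ATF4 and unfolded protein response genes, 0 passed in either tool and 15 were below 0 (median -0.19). *Asns*, asparagine synthetase, differed by -0.88 on the log2 scale (adjusted p = 0.511), and *Trib3*, a pseudokinase that restrains this pathway, -0.62 (adjusted p = 0.717).

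The 30 other heat shock proteins and cochaperones had a median of 0.0037, with 14 below 0 and 0 called by edgeR. *Serpinh1*, a collagen chaperone, had 6.55 ± 2.77 CPM in FCGR4+ and 34.2 ± 24.3 in FCGR4- libraries (log2 fold change -2.18, adjusted p = 0.145 in edgeR and 1.04e-05 in DESeq2), lower in 4 of 4 mice, as the fibroblast markers were. *Hspb8*, a small heat shock protein, had 0.754 ± 0.538 against 2.34 ± 2.00 CPM (-1.67, adjusted p = 0.470). DESeq2 called 2 of the 30, *Serpinh1* among them, both lower, where it called 4.87% of all tested genes lower.

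Of 12 early induced cytokines and chemokines, 11 were below 0 (median -0.29), and 1 passed the threshold, beside 1.27% of all tested genes. *Il1b*, the proinflammatory cytokine interleukin 1 beta, had 38.4, 29.7, 174 and 62.3 CPM in the FCGR4+ libraries of mice 1 to 4 and 59.5, 82.9, 725 and 296 CPM in their FCGR4- libraries. It was lower in FCGR4+ cells of 4 of 4 mice although the groups overlapped, and mouse 3 was the highest of both populations (log2 fold change -1.61, SE 0.274, adjusted p = 0.0666). The call was lost at a threshold of 0.05, without the block, in mice 1 and 2 alone, and without mouse 2, mouse 3 or mouse 4, each of which left 0 genes of the list called, while 2 were called without mouse 1. Neutrophil markers were also higher in the FCGR4- libraries of each mouse, and their part in *Il1b* was not tested.

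**Figure D4:**
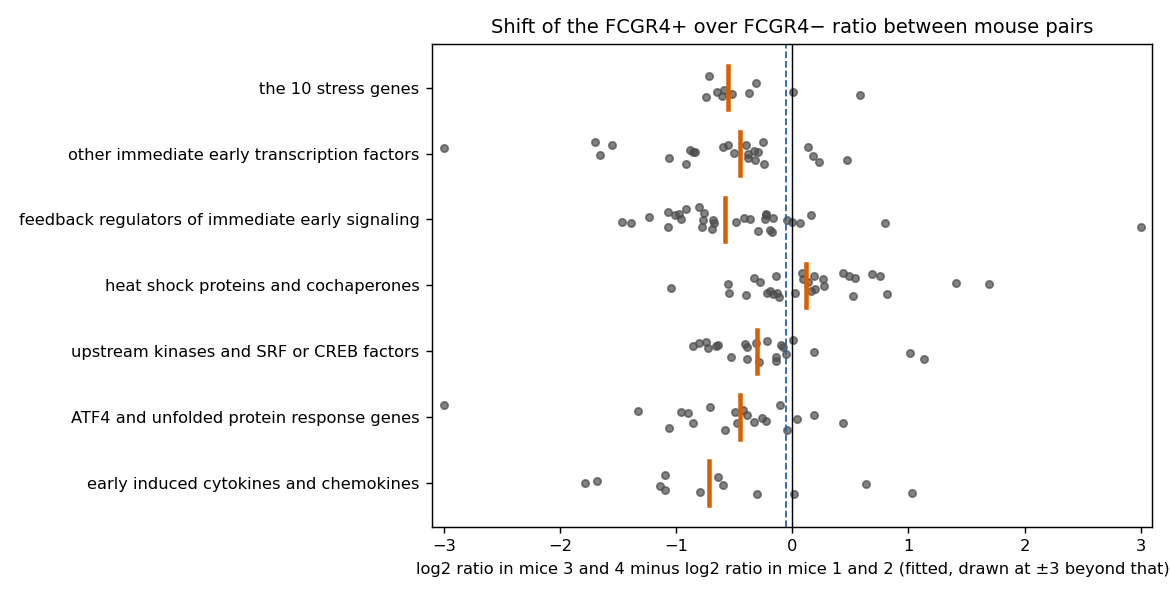
Fitted change of the log2 FCGR4+ over FCGR4- ratio from mice 1 and 2 to mice 3 and 4 (x axis) for each gene of 7 lists (y axis), with orange bars for list medians and a dashed line for the median of all tested genes (-0.06). Most genes of the immediate early lists lie left of 0, and the heat shock list lies on both sides with a median of 0.12; values beyond ±3 are drawn at 3.

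The interaction with ID prefix was read in these lists too, as counts and medians with no test of a list. Among the 32 feedback regulators, 28 interactions were below 0 (median -0.58), and DESeq2 called 14. In edgeR, which called 0 of all genes, the unadjusted p was under 0.05 for 17 of them, beside 13.8% of all genes. The same count was 5 of 24 other transcription factors, 5 of 12 cytokines, 6 of 22 upstream, 3 of 20 unfolded protein response and 3 of 30 heat shock genes. The median ratios of the feedback regulators in mice 1 to 4 were 0.33, 0.01, -0.45 and -0.42, and those of the other transcription factors 0.13, -0.03, -0.43 and -0.57. Of the 24 other transcription factors, 20 interactions were below 0 (median -0.45) and DESeq2 called 5. The cytokines had 9 of 12 below 0 (median -0.72, 5 called by DESeq2), the upstream list 18 of 22 (median -0.30, 3 called) and the unfolded protein response list 17 of 20 (median -0.45, 0 called). The cytokine medians in mice 1 to 4 were 0.38, -0.49, -0.93 and -0.35, so that mouse 2 lay below mouse 4 and not beside mouse 1. The upstream list had 0.26, 0.10, -0.21 and -0.21, and the unfolded protein response list 0.19, -0.0031, -0.46 and -0.21. The heat shock list had 12 of 30 interactions below 0 (median 0.12, 2 called by DESeq2) and median ratios of 0.12, -0.09, -0.07 and 0.05. Beside these, 53.3% of all genes were below 0 and DESeq2 called 5.72%, and no list was tested against another.

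*Ppp1r15a*, a phosphatase subunit that ends the integrated stress response, had 313, 289, 375 and 259 CPM in FCGR4+ and 268, 282, 614 and 471 CPM in FCGR4- libraries. Its 4 log2 ratios (0.22, 0.03, -0.71 and -0.86) had the signs of those of *Fos* and *Dusp1*. It was also the gene most like the 10 in its profile: with the mean z score of the members over the 8 libraries its Pearson correlation was 0.966. Next came *Tgfbr3* (0.957), *Gm16556* (0.956), *Nlrp3*, the inflammasome sensor (0.930), *Rlf* (0.927), *Tmem63a* (0.924), *Mcts2* (0.922), *Kdm3a* (0.921), *Gm8825* (0.921) and *Hcar2*, the niacin receptor (0.920). These are descriptions over 8 libraries that share 4 mice.

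Within the 10 genes the mean profile was not shared equally. The correlation with it, of which each gene is itself a part, was 0.918 for *Junb*, 0.882 for *Atf3*, 0.8291 for *Jun* and 0.797 for *Ier2*. It was 0.707 for *Fosb*, 0.681 for *Hspa1a*, 0.647 for *Egr1*, 0.544 for *Hspa1b*, 0.516 for *Dusp1* and 0.277 for *Fos*. The mean z score was highest in the FCGR4- library of mouse 3 (1.36) and lowest in the FCGR4+ library of mouse 4 (-0.77). *Fos* thus had the lowest value, and the values of the HSP70 copies each include the other copy in the mean.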

How the data were processed

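The deposited values are raw counts per gene, made by the authors: reads were mapped to mm10 with STAR, and read pairs were counted with featureCounts 1.6.3 over GENCODE vM18 exons, without strand and with multi-mapping pairs counted at each place. All 8 libraries were used, and 0 columns were left out. Multi-mapping inflates near-identical copies, and missing strand merges antisense overlaps.

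Genes that reached 10 counts in 4 or more libraries were kept, normalized by TMM and tested by the quasi-likelihood method of edgeR 4.0.16 under R 4.3.3, blocked on mouse, with Benjamini-Hochberg adjustment over all tested genes and a threshold of 0.1. SEs are the log2 fold change over the root of the F statistic. Ratios within a mouse use log2 CPM (prior count 2). DESeq2 1.42.0 was the alternative, and its counts of interaction calls, over all genes and over the 10, were chosen after seeing the data, as were the interaction fits without the block, without single mice and with the newer method. The main edgeR and DESeq2 fits, of the population difference and of the interaction, were tried on simulated counts. The other steps were not.

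Libraries were grouped by the population and mouse number in the labels. Same-numbered libraries come from 1 animal, and their deviations from the group means correlated at 0.291 to 0.428 (different mice, median -0.06). No pair of libraries agreed within sampling noise.

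Promoters are from RefSeq (GRCm38.p6), and shared words were counted in transcripts of GENCODE on mm10, from a newer release. Of 24 upstream genes, 22 matched by symbol. The 10 genes, lists and tests were chosen with earlier results of these data known. Named genes are the 10, *Fcgr4*, in each list those past the threshold (up to 3 highest and 3 lowest) or otherwise the 2 largest differences, and the 10 genes most correlated with the mean z score of the members.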

Additional observations from a re-analysis of the deposited data

How the results depend on the processing

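The count of stress genes past the threshold was 0 under each of the 14 alternatives run. The count over all genes, 217, was 48 with no replicate block, 1024 with DESeq2, 629 with edgeR's newer quasi-likelihood method, 1054 with no filter on low counts, 115 in mice 1 and 2 alone, 72 in mice 3 and 4 alone, 76 at a threshold of 0.05 and 78 to 162 without single mice. Of the lists, transcription factors went from 0 to 3 (DESeq2), 2 (newer method), 3 (no filter) and 1 (mice 3 and 4 alone), feedback regulators from 0 to 4, 1, 1 and 1 in the same order, heat shock genes from 0 to 2 (DESeq2), 1 (newer method), 2 (no filter) and 1 (at least 10 counts in every library), and the upstream list from 0 to 1 (no filter). Cytokines went from 1 to 0 with no block, at 0.05 and in mice 1 and 2 alone, to 3 with no filter, and from 0 to 2 without single mice. Interaction calls went from 0 to 977 over all genes and from 0 to 5 members with DESeq2, which gave *Fos* -0.58, *Jun* -0.64, *Junb* -0.60, *Egr1* -0.71 and *Dusp1* -0.73. Over all alternatives the adjusted p of these 5 interactions ran from 0.0137 (*Dusp1*) to 0.797 (*Egr1*). In these counts the cause was not tested.

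Signs turned for *Fos* with no block (0.025), with no filter (0.013), in mice 1 and 2 alone (0.29) and without single mice (-0.17 to 0.13), and for *Fosb* by library size alone (-0.042), in mice 3 and 4 alone (-0.13) and without single mice (-0.13 to 0.19). Without single mice other differences kept their sign but not their size: *Jun* ran from -0.64 to -0.33, *Egr1* from -0.70 to -0.30, *Junb* from -0.32 to -0.04, *Atf3* from -0.19 to -0.0067, *Dusp1* from -0.30 to -0.02, *Ier2* from -0.28 to -0.09, *Hspa1a* from -0.65 to -0.20 and *Hspa1b* from -0.93 to -0.31. The *Egr1* interaction was -0.42 without mouse 1, that of *Atf3* -0.28 without mouse 2 and that of *Ier2* -0.22 without mouse 4. In mice 1 and 2 alone *Junb* was 0.14, *Atf3* 0.16 and *Dusp1* 0.23. The *Fosb* interaction ran from -0.59 to 0.064 without single mice, that of *Hspa1b* from -0.18 to 1.39 and that of *Hspa1a* from -0.68 to 0.72, and *Hspa1a* was also -0.12 by library size, -0.062 with no block and -0.0071 with the newer method. The block changed no call of the 10. Library size alone moved the median of all genes to -0.09.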

Other observations

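Of 30 groups of 4 values examined for a library far from the others (the 10 stress genes in each population and their within-mouse ratios), 0 held one, where chance would give 1.5.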
